A study of Homo sapiens with 2 samples.

Results

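The genes described here are 10 folding factors of the endoplasmic reticulum (ER), out of 57820 Ensembl IDs in the count table. They are the HSP90 and HSP70 chaperones HSP90B1, HSPA5 and HYOU1, the co-chaperones DNAJB11, DNAJC3 and SDF2L1, the protein disulfide isomerases P4HB, PDIA4 and PDIA6, and the prolyl isomerase PPIB. They were chosen by their known function with the counts of these libraries already seen, and were found by Ensembl ID. All 10 IDs were present in the table. Their levels are therefore given as a description, with no test.

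Ribosome-protected fragments were counted in 2 libraries of HEK293, an established line of human embryonic kidney cells. Both libraries are vehicle controls, cells kept in DMSO for 12 h without heat shock, and they form 1 group: replicate 1 came from batch 1 and replicate 2 from batch 2. With 1 library in each batch, batch and replicate cannot be told apart, and nothing else in the labels says that the cultures were independent. In this assay RNase I removes mRNA that is not covered by a ribosome, so a fragment of 27 to 29 nt counted on an mRNA, called a footprint here, is read as a ribosome on it. Ribosomal RNA was not depleted, so the totals of the libraries can also hold fragments of that RNA. Minocycline-treated cells and matched RNA-seq are not analysed here, so a footprint level does not separate more mRNA from more ribosomes on each mRNA. The cell line was not checked against marker genes, because the table gives IDs without names.

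The ER is where secreted and membrane proteins are folded. HSPA5 (BiP) binds unfolded chains in a cycle of ATP hydrolysis that J-domain proteins such as DNAJB11 and DNAJC3 stimulate, and HYOU1 exchanges its nucleotide. HSP90B1 (GRP94) completes the folding of selected clients, disulfide isomerases form and reshuffle disulfide bonds, and PPIB turns peptide bonds before proline. Most of these genes are textbook targets of the unfolded protein response, in which the factors ATF6 and XBP1 act on ER stress response elements (ERSE) of promoters together with NF-Y, which binds CCAAT.

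Those elements are shown first. Genes of this response are where the elements are known from, so finding them in a set chosen by function is a description of these promoters and supports nothing about the set. RefSeq promoter windows (GRCh38.p14, 250 bases before each annotated start and 50 from it) were matched by symbol for 10 of 10 genes, with 12 windows in all. ERSE was searched on both strands as CCAAT, 9 bases of any kind and CCACG. ERSE-II was searched as ATTGG, 1 base of any kind and CCACG. The letters ATTGG are CCAAT read on the other strand, so each full element also counts as a match to CCAAT and to CCACG alone. Full ERSE matches lay in windows of 3 genes, HSP90B1, HSPA5 and PDIA6, and full ERSE-II matches in windows of 2, HYOU1 and SDF2L1. Of all 27305 symbols with a window, 0.0916% had an ERSE in any of their windows and 0.0696% an ERSE-II; by window, it was 0.0769% and 0.0541% of 35116.

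The full matches are printed because they show the element itself in these 5 genes. Each is read 5′ to 3′ on the strand named, with 15 flanking bases, and capitals mark the fixed letters of the element.
HSPA5 ERSE, chr9:125241376-125241424, minus strand: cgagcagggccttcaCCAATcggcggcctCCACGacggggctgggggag
HSP90B1 distal ERSE, chr12:103930201-103930249, plus strand: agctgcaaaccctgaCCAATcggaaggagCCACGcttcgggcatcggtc
HSP90B1 proximal ERSE, chr12:103930306-103930354, minus strand: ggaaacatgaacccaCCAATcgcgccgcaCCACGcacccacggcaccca
PDIA6 ERSE, chr2:10812838-10812886, minus strand: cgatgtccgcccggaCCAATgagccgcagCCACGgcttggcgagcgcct
HYOU1 proximal ERSE-II, chr11:119057259-119057299, plus strand: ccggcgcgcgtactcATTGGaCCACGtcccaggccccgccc
HYOU1 distal ERSE-II, chr11:119057365-119057405, plus strand: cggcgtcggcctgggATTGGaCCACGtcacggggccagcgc
SDF2L1 ERSE-II, chr22:21642099-21642139, minus strand: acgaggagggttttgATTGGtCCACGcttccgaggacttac

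The match of HSPA5 lay 48 to 66 bases before its start and that of PDIA6 68 to 86 bases before the downstream of its 2 annotated starts. HSP90B1 had one match 71 to 89 bases before its start, in the opposite orientation, and another 176 to 194 bases before it. The 2 matches of HYOU1, at 69 to 79 and 175 to 185 bases, share the free base, and SDF2L1 had its match at 178 to 188 bases. All 7 matches lay before the start. DNAJB11, DNAJC3, P4HB, PDIA4 and PPIB had no full match, which says only that these letters are not in these windows.

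With 1 mismatch allowed among the 10 fixed letters, a search added after the data were seen, either element lay in windows of 6 genes, with DNAJC3 the addition. The same search marked 3.26% of all symbols. CCAAT alone lay in at least 1 window of each of the 10 genes, against 39.7% of all symbols, though not in the window at the upstream start of PDIA6. CCACG alone lay in windows of 8, the exceptions being DNAJB11 and P4HB, against 42.1% of all symbols. Both libraries are vehicle controls, so no value here measures what these elements do.

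**Figure D1:**
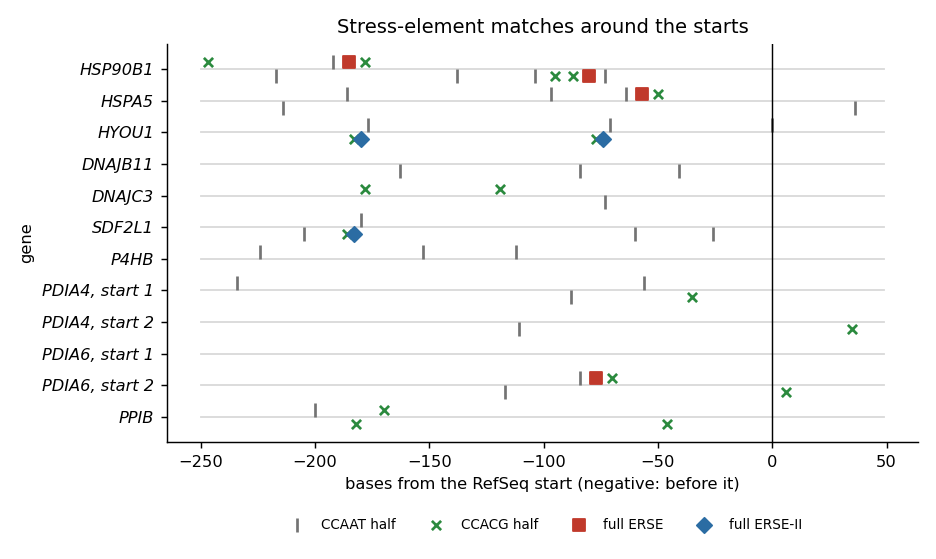
Positions of promoter matches without mismatch; the x axis is the distance in bases from the RefSeq start, with 1 row per annotated start, and marks above or below a row lie on the gene's strand or the opposite strand. Red squares (full ERSE) lie in HSP90B1, HSPA5 and PDIA6 and blue diamonds (full ERSE-II) in HYOU1 and SDF2L1; the other genes show only CCAAT or CCACG.

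Together the 10 genes held 12545 of 865838 counts in replicate 1 and 7441.5 of 611266 in replicate 2. The share was 1.45% in the first library (1.42 to 1.47, a 95% Clopper-Pearson interval) and 1.22% in the second (1.19 to 1.25), with a mean of 1.33% ± 0.164 (SD, n = 2). Intervals cover counting error only and treat amplified fragments as independent molecules. Levels below are in CPM, counts per 1000000 counts of the library, where 1 count is worth 1.15 CPM in replicate 1 and 1.64 CPM in replicate 2. The 2 highest IDs of the table, ENSG00000210082 and ENSG00000211459, took 17.6% of replicate 1 and 23.2% of replicate 2. With this pair left out of the totals, the mean share of the 10 genes was 1.67%. The log2 ratio of the summed counts of the 10 genes, replicate 2 over replicate 1, was -0.25 by full library totals. After the TMM scaling described below it was -0.14, so the size of the gap between the shares depends on the totals.

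Long coding sequences take more footprints than short ones at equal density, and coding lengths were not used here. The order of the genes by footprints is thus an order of how many ribosomes were caught on each, not of mRNA or protein level. HSP90B1 took the most, then P4HB, HSPA5, PDIA6, PPIB, PDIA4, HYOU1, DNAJB11, SDF2L1 and DNAJC3. By mean CPM, 5 of the 10 stood among the 100 highest IDs and 8 among the 250 highest, of 12262 IDs above 0 in both libraries. The remaining 2, SDF2L1 and DNAJC3, ranked 1427 and 2678.

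**Figure D2:**
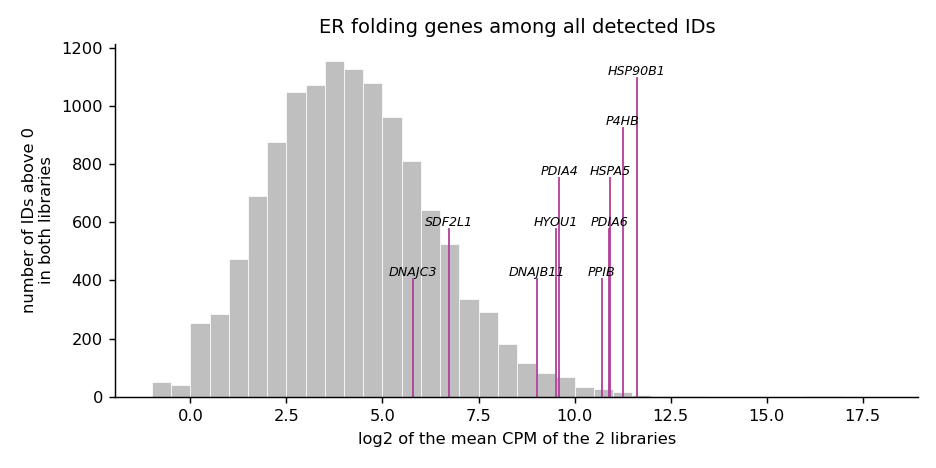
Histogram of the log2 of the mean CPM of the 2 libraries for the 12262 IDs above 0 in both (x axis, bins of 0.5; y axis, number of IDs), with a purple line at each ER folding gene; line heights only separate the names. DNAJC3 and SDF2L1 lie to the right of the peak of the histogram, and the other 8 genes lie further right, in the upper tail.

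Among the ATP-driven chaperones, HSP90B1 (ENSG00000166598), the ER form of HSP90, had 2932.5 counts in replicate 1 and 1791 in replicate 2. These are 3387 and 2930 CPM, a mean of 3158 ± 323 CPM (SD, n = 2), and its rank by mean CPM was 11 in the whole table. Both values lay above those of every other gene of the set. HSPA5 (ENSG00000044574), the ER form of HSP70, had 1937 and 1016 counts, or 2237 and 1662 CPM, with a mean of 1950 ± 407 CPM. It showed the widest SD of the set in CPM. HYOU1 (ENSG00000149428), the large HSP70-related partner of HSPA5, had 741.5 and 376 counts, or 856 and 615 CPM, with a mean of 736 ± 171 CPM. By library totals, the intervals of replicates 1 and 2 did not overlap for any of these 3 genes, with replicate 1 higher each time. The same held for 6 of the 8 genes of the set with at least 500 summed counts, and for 40.6% of the 384 IDs of the table with that many.

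The co-chaperones had the fewest footprints. DNAJB11 (ENSG00000090520), a soluble J-domain partner of HSPA5, had 503 and 276 counts, or 581 and 452 CPM, with a mean of 516 ± 91.5 CPM. SDF2L1 (ENSG00000128228), which binds DNAJB11, had 100 and 60 counts, or 115 and 98.2 CPM, with a mean of 107 ± 12.3 CPM. DNAJC3 (ENSG00000102580), a J-domain protein with tetratricopeptide repeats, had 49 and 33 counts, or 56.6 and 54.0 CPM, with a mean of 55.3 ± 1.84 CPM. At 33 counts the interval of DNAJC3 in replicate 2 ran from 37.2 to 75.8 CPM, so its small SD over the libraries understates the counting error. For SDF2L1 and DNAJC3 the intervals of both libraries overlapped, and for DNAJB11 they did not.

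Among the disulfide isomerases, P4HB (ENSG00000185624), the classical PDI and a subunit of collagen prolyl 4-hydroxylase, had 2188 and 1446.5 counts, or 2527 and 2366 CPM. Its mean was 2447 ± 114 CPM. PDIA6 (ENSG00000143870), which associates with HSPA5, had 1840 and 1045.5 counts, or 2125 and 1710 CPM, with a mean of 1918 ± 293 CPM. PDIA4 (ENSG00000155660), also called ERp72, had 702 and 456 counts, or 811 and 746 CPM, with a mean of 778 ± 45.8 CPM. The intervals of both libraries overlapped for P4HB and PDIA4 and were apart for PDIA6. PPIB (ENSG00000166794), cyclophilin B of the ER, had 1552 and 941.5 counts, or 1792 and 1540 CPM, with a mean of 1666 ± 178 CPM, and its intervals were apart as well.

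Several neighbours in the order did not differ beyond their spread. HSPA5 lay above PDIA6 in replicate 1 and below it in replicate 2, and their means differed by less than either SD. HYOU1 lay above PDIA4 in replicate 1 and below it in replicate 2. PPIB lay below both HSPA5 and PDIA6 in both libraries, and its mean differed from theirs by less than their SD but by more than its own. HSP90B1, P4HB, PPIB, DNAJB11, SDF2L1 and DNAJC3 had the same place in the order in both libraries, and the means of HSP90B1 and P4HB were further apart than either SD.

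**Figure D3:**
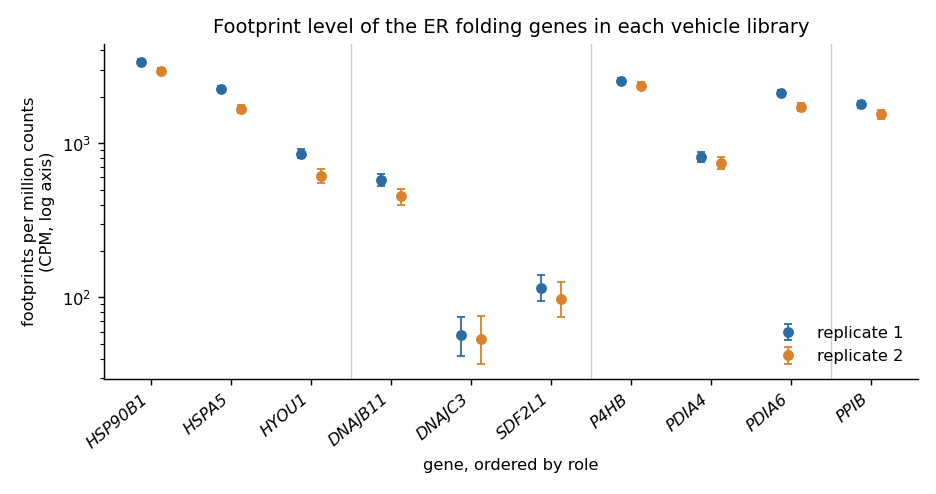
Footprint level in CPM (y axis, log scale) of each gene (x axis, ordered by role) in replicate 1 (blue) and replicate 2 (orange); points are single libraries and bars are 95% exact Clopper-Pearson intervals of counting error. HSP90B1 is highest in both libraries (3387 and 2930 CPM) and DNAJC3 lowest (56.6 and 54.0 CPM).

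The next comparison was how far the 2 vehicle libraries differed for each gene. Ratios are replicate 2 over replicate 1 after TMM scaling, which sets library sizes by the bulk of the IDs, with conditional exact binomial intervals of counting error. They compare these 2 libraries, not conditions, and no p-value was computed. HYOU1 and HSPA5 were the furthest from equal, with log2 ratios of -0.37 (95% interval -0.55 to -0.19) and -0.32 (-0.43 to -0.21). DNAJB11 had -0.25 (-0.47 to -0.04), PDIA6 -0.20 (-0.31 to -0.09) and HSP90B1 -0.10 (-0.19 to -0.01). For these 5 genes, of the 8 in the set with at least 500 summed counts, the interval lay below 0, as it did for 33.9% of the 384 IDs with that many. With TMM factors from IDs of at least 100 summed counts it lay below 0 for 3 genes, HSPA5, HYOU1 and PDIA6, and for 26.8% of the 384 IDs, so the call for HSP90B1 and DNAJB11 rests on the scaling. With TMM factors from all IDs above 0, and by library totals, PPIB joined the 5.

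The other 5 genes had intervals that included 0. PPIB had a log2 ratio of -0.11 (-0.23 to 0.01) and SDF2L1 -0.13 (-0.61 to 0.35). PDIA4 stood at -0.01 (-0.18 to 0.16) and P4HB at 0.01 (-0.08 to 0.11), the pair closest to equal. DNAJC3 stood at 0.04, with an interval of -0.64 to 0.71 that its 82 summed counts leave wide.

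The differences were set beside the spread of the whole table. Of the 9 genes with at least 100 summed counts, 0 lay beyond 1.5-fold in either direction, and DNAJC3, with fewer counts, did not either. Of all 2241 IDs with at least 100 summed counts, 20.3% lay beyond 1.5-fold. Of the 384 IDs with at least 500 summed counts, a limit chosen after the data were seen, 14.1% did, and 0 of the 8 genes of the set that reach it. The median log2 ratio was -0.13 over the 9 genes and -0.07 over the 2241 IDs. Of these IDs, 23.7% had a lower ratio than HYOU1 and 27.4% had a lower ratio than HSPA5. The median absolute log2 ratio was 0.13 over the 9 genes and 0.30 over the 2241 IDs, and with a minimum of 500 summed counts it was 0.16 for 8 genes and 0.24 for 384 IDs.

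Between TMM and library totals, the direction changed for P4HB and DNAJC3 only. By TMM, 8 of the 9 genes were lower in replicate 2, where 56.8% of the 2241 IDs were; among IDs with at least 500 summed counts it was 7 of 8, where 62.0% were. By library totals all 9 were lower, and DNAJC3 as well, where 66.5% of the 2241 IDs were. Library totals moved the median of the 2241 IDs by -0.11 on the log2 scale, and the pair of highest IDs, which held more of replicate 2, enters those totals. P4HB went from 0.01 to -0.10 and DNAJC3 from 0.04 to -0.07, so neither has a settled direction. With the pair left out of the totals, P4HB was at 0.01 and DNAJC3 at 0.03. HSPA5 was at -0.43 and HYOU1 at -0.48 by library totals, below 0 under both scalings. The point ratios of HSP90B1, DNAJB11, SDF2L1, PDIA4, PDIA6 and PPIB were below 0 under both as well, that of PDIA4 only at -0.01 by TMM.

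**Figure D4:**
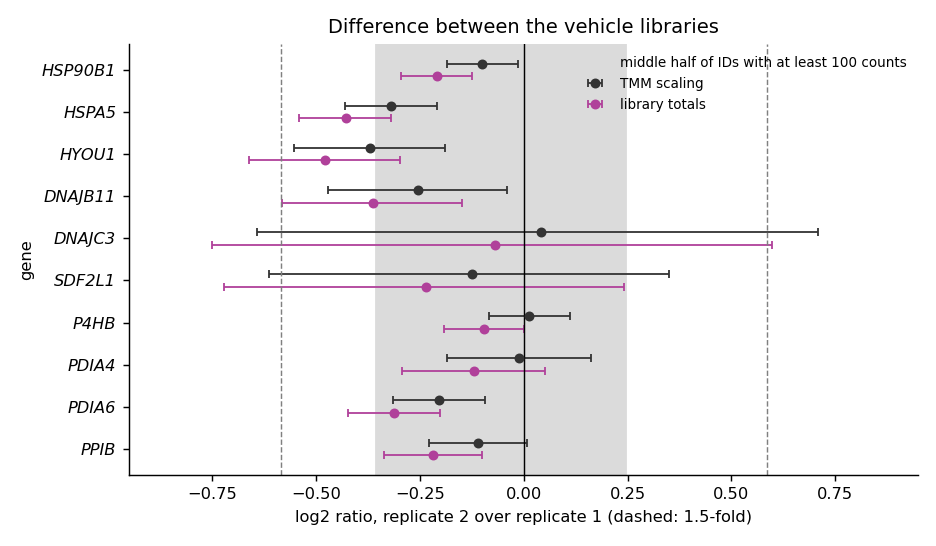
Log2 ratio of replicate 2 over replicate 1 (x axis) for each gene (y axis) after TMM scaling (black) and by library totals (purple); bars are 95% exact intervals of counting error, the grey band spans the quartiles of the 2241 IDs with at least 100 summed counts under TMM (-0.35 to 0.25), and dashed lines mark 1.5-fold. The band applies to the black points only, since by library totals the quartiles were -0.46 to 0.14. All 10 points lie within 1.5-fold under both scalings, and HYOU1 and HSPA5 lie furthest to the left.

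The split of footprints among the 10 genes needs no scaling between libraries, and a gene's coding length cancels when its own share is compared. HSPA5 held 15.4% of the set in replicate 1 (95% exact interval 14.8 to 16.1) and 13.7% in replicate 2 (12.9 to 14.5). P4HB held 17.4% and 19.4%, with intervals that did not overlap. In percentage points these were the largest shifts of a member in each direction, and for HSPA5 too the intervals of the libraries were apart. Relative to its own share, HYOU1 was further down, with a log2 change of -0.23 against -0.18 for HSPA5. DNAJC3 was further up by point value, at 0.18 against 0.16 for P4HB. On 49 and 33 counts, however, the share intervals of DNAJC3 overlapped widely, 0.289% to 0.516% in replicate 1 and 0.305% to 0.622% in replicate 2. HYOU1 held 5.91% and 5.05%, with intervals of 5.51 to 6.34 and 4.57 to 5.57 that overlapped narrowly. HSP90B1 held 23.4% and 24.1%, and PPIB 12.4% and 12.7%, each with overlapping intervals.

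By role, HSP90B1, HSPA5 and HYOU1 together held 44.7% of the set in replicate 1 (43.85 to 45.60) and 42.8% in replicate 2 (41.64 to 43.90). The 3 disulfide isomerases held 37.7% (36.86 to 38.56) and 39.6% (38.50 to 40.73). The 3 co-chaperones held 5.20% (4.82 to 5.60) and 4.96% (4.48 to 5.48). For each role the 95% exact intervals of the libraries overlapped, narrowly for the chaperones and isomerases. By point value, HSP90B1 rose in share while HSPA5 and HYOU1 fell, and PDIA6 fell while P4HB and PDIA4 rose. The summed log2 ratio after TMM scaling was -0.21 (-0.27 to -0.14) for the 3 chaperones and -0.21 (-0.40 to -0.02) for the co-chaperones. It was -0.07 (-0.14 to -0.00394) for the isomerases, where the median of the 2241 IDs with at least 100 summed counts was also -0.07. DNAJB11 held 503 of the 652 co-chaperone counts in replicate 1 and 276 of 369 in replicate 2, so the co-chaperone ratio rests mostly on DNAJB11. For the co-chaperones and the isomerases the upper bound lay near 0. TMM factors from other count minimums were not applied to these sums, so a ratio below 0 is not settled for those groups. Within the isomerases, 1.19 footprints lay on P4HB for each on PDIA6 in replicate 1 and 1.38 in replicate 2, a change of 1.16-fold (95% exact interval 1.05 to 1.29).

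All 45 pairs of genes were compared in this way, and the interval lay off 1 for 10 of them and included 1 for the rest. Pairs that share a gene are not independent, and each of the 10 contains HSPA5, HYOU1 or P4HB. The pairs printed here with intervals are all among those 10. The ratio between 2 members changed from replicate 1 to replicate 2 by 1.11-fold in the median pair and by 1.33-fold in the most changed pair, HYOU1 and DNAJC3, which rests on the few counts of DNAJC3. As examples, chosen after their values were seen, HSPA5 per P4HB was 0.885 in replicate 1 and 0.703 in replicate 2, a change to 0.794 of its value (0.717 to 0.879). HSP90B1 per HSPA5 was 1.51 and 1.76, a change of 1.16-fold (1.06 to 1.28). These 95% exact intervals hold the counting error within the 2 libraries, the same was not computed for pairs of other IDs, and the spread between further cultures was not measured.

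**Figure D5:**
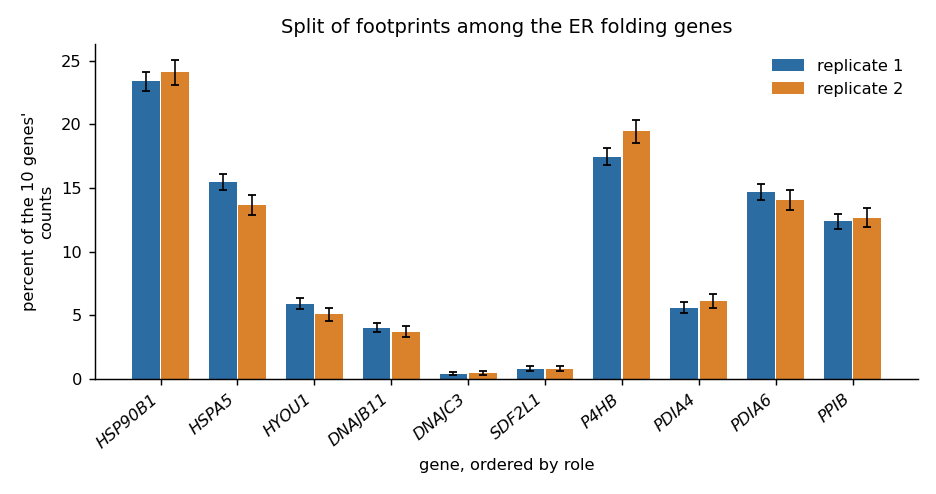
Share of the 10 genes' summed counts taken by each gene (y axis, percent; x axis, genes by role) in replicate 1 (blue bars) and replicate 2 (orange bars), with 95% exact Clopper-Pearson intervals. HSPA5 goes from 15.4% to 13.7% and P4HB from 17.4% to 19.4%, while HSP90B1 and PPIB have overlapping intervals.

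Some counts were not whole, which bears on how exactly they can be read. HSP90B1 and HYOU1 in replicate 1 and P4HB, PDIA6 and PPIB in replicate 2 each ended in 0.5, so 5 of the 10 genes had a non-whole count in 1 library and 0 in both. Of all IDs with at least 100 summed counts, 21.6% had a non-whole count in at least 1 library. The source of the fractions was not tested. Rounding down or leaving the values as deposited changed no gene's log2 ratio beyond its interval.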

How the data were processed

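Per the labels, footprints of 27 to 29 nt from 2 vehicle libraries were counted per Ensembl ID, without depletion of ribosomal RNA. The authors deposited unscaled values, some not whole, which were treated as estimated counts. Per the submitters' processing notes the build was hg19. With aligner, counter, annotation and strand setting not given in the sources used here, fragments of overlapping or near-identical genes may be split uncertainly. The members and lists were chosen with earlier results of these data known.

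IDs were matched before the dot, and symbols came with the gene set, since 0 of the 10 IDs occur in the reference table of 59792 genes. Symbols therefore link the IDs to RefSeq promoter windows. Planned levels per codon, protein features and values for further ER genes by symbol could not be computed. Every gene of the set is named, by rule.

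Totals were 865838 and 611266 counts. A count of 0 would allow up to 3 counts, or 3.46 and 4.91 CPM. Ratios used counts rounded to whole numbers and TMM factors (edgeR 4.0.16, R 4.3.3) over IDs with at least 20 summed counts. DESeq2 1.42.0 size factors, library totals, other count minimums, a 2-fold limit and each library left out were alternatives. Other steps used Python 3.11.15, numpy 2.4.6, scipy 1.17.1 and pandas 2.3.3, and were tested on simulated data.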

Additional observations from a re-analysis of the deposited data

How the results depend on the processing

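The mean share of the 10 genes, 1.33%, was 1.67% without the 2 highest IDs in the totals and 1.73% without the last 50 IDs of the table (added after seeing the data), by arithmetic, and 1.22% to 1.45% with 1 library left out. The count of the 10 genes beyond 1.5-fold stayed 0 by DESeq2, by library totals, at 2-fold and at either other count minimum. The count over all IDs, 456, was 115 at 2-fold, 2664 with at least 20 summed counts and 54 with at least 500. Genes with a full ERSE numbered 3, with CCACG alone 8, and with either element at up to 1 mismatch 6. By library totals, 2 of the 10 ratios moved beyond their intervals. Under DESeq2, the other TMM minimums and library totals without the 2 highest IDs none did. PDIA4 was at 0.06 with a TMM minimum of 100 counts, so its sign is not settled either. No paired analysis was possible because there is 1 group. Depth limits DNAJC3 and SDF2L1, with 82 and 160 summed counts. Levels per codon and their ratios were not run, for want of coding lengths.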
